A study of Homo sapiens with 12 samples.

Results

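The mRNAs of 9 amino acid transporter genes were followed in HEK293T, a stable epithelial line of human embryonic kidney origin in which SV40 T antigen is expressed. They are SLC7A5, SLC7A6, SLC7A11, SLC3A2, SLC1A5, SLC1A4, SLC38A2, SLC38A1 and SLC7A1, chosen by name, and each has 1 row among the 23615 gene rows of the deposited tables. The study asked how CP25, a macrocycle described as inhibiting human Dcp2, bears on mRNA half-life once transcription is off. Dcp2 removes the 5′ cap of an mRNA, a step that opens it to degradation from that end. The 4 groups of 3 libraries each were cells given CP25 and then actinomycin D for 2 h, cells given vehicle (the buffer the peptide is stored in) and then actinomycin D for 2 h, CP25 cells at 0 h, and vehicle cells at 0 h. CP25 was used at 2 μM, CP25 or vehicle was left on the cells for 18 h, and actinomycin D, which blocks transcription, was used at 5 μg/mL. All groups come from this 1 line, and the labels do not say whether replicates were cultured separately. The p-values therefore reflect variation among libraries that could be technical in origin. In RNA from whole cultures, fewer cells and less RNA per cell cannot be told apart.

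Amino acid transporters of the plasma membrane differ in what they carry and how. SLC3A2 (the 4F2 or CD98 heavy chain) carries nothing by itself: it is bound by a disulfide bridge to a light chain of the SLC7 family and brings it to the surface, and SLC7A5, SLC7A6 and SLC7A11 are such light chains. The SLC1, SLC38 and cationic SLC7A1 carriers work without that heavy chain. Several of these genes are induced through the transcription factor ATF4 when cells lack amino acids, and dividing lines such as HEK293T depend on them for glutamine, leucine and cystine.

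Libraries were of poly(A) RNA and the deposited unit is FPKM, fragments scaled to transcript length and to library size, so that levels of different genes can be compared per length. The depth, estimated from the value that stands for 1 fragment, was 22400000 to 29500000 fragments per library at 2 h and 13500000 to 22400000 at 0 h. This gives 347 to 432 fragments for SLC1A4, the lowest of the 9, at 2 h and 353 to 515 at 0 h. Of 10 markers of embryonic kidney and HEK293 cells, 10 had a mean of at least 1 FPKM at 0 h. VIM was highest, at 193 FPKM in CP25 and 189 FPKM in vehicle. INA (1.29 and 1.32 FPKM), LHX1 (1.49 and 1.58 FPKM) and PAX2 (1.73 and 1.85 FPKM) were lowest. At 2 h PAX2 (0.931 FPKM in CP25, 0.883 FPKM in vehicle) and LHX1 (0.900 and 0.860 FPKM) lay below 1 FPKM. Of 8 markers of the mature nephron 0 reached that level (highest group mean 0.172 FPKM), nor did any of 6 haematopoietic (0.759 FPKM), 3 keratinised or glandular (0.951 FPKM) or 3 endothelial markers (0.0197 FPKM). Of 3 fibroblast markers, COL1A1 alone did (highest group mean 3.51 FPKM).

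The order of transporter levels was alike in all 4 groups at its top and its bottom and differed in its middle between the times. SLC1A5 (ASCT2), the sodium-dependent exchanger that brings in glutamine, stood highest, at 116 ± 14.7 FPKM in CP25 and 121 ± 16.1 FPKM in vehicle at 2 h, and at 160 ± 13.5 and 154 ± 6.83 FPKM in CP25 and vehicle at 0 h (SD, n = 3 each). Its relative SLC1A4 (ASCT1), which exchanges alanine, serine, cysteine and threonine, stood lowest, at 3.28 ± 0.365 and 3.46 ± 0.716 FPKM in CP25 and vehicle at 2 h and 4.48 ± 0.915 and 4.85 ± 0.805 FPKM at 0 h. At 0 h SLC38A2, SLC7A5 and SLC3A2 came next after SLC1A5 with overlapping libraries, followed by SLC38A1, SLC7A1, SLC7A6 and SLC7A11 without overlap. SLC7A11 and SLC1A4 overlapped in CP25 at 0 h and in no other group. At 2 h SLC38A1 and SLC7A5 overlapped in the places after SLC1A5, while SLC3A2 overlapped SLC38A2 and SLC38A2 overlapped SLC7A1. SLC7A1 also overlapped SLC7A6 in CP25 at 2 h, but not in vehicle. Among the 12365 genes averaging 1 FPKM or more at 0 h, SLC1A5 lay above 96.5% of genes in CP25 and 96.4% in vehicle, and SLC7A11 above 30.8% and 32.6%.

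**Figure D1:**
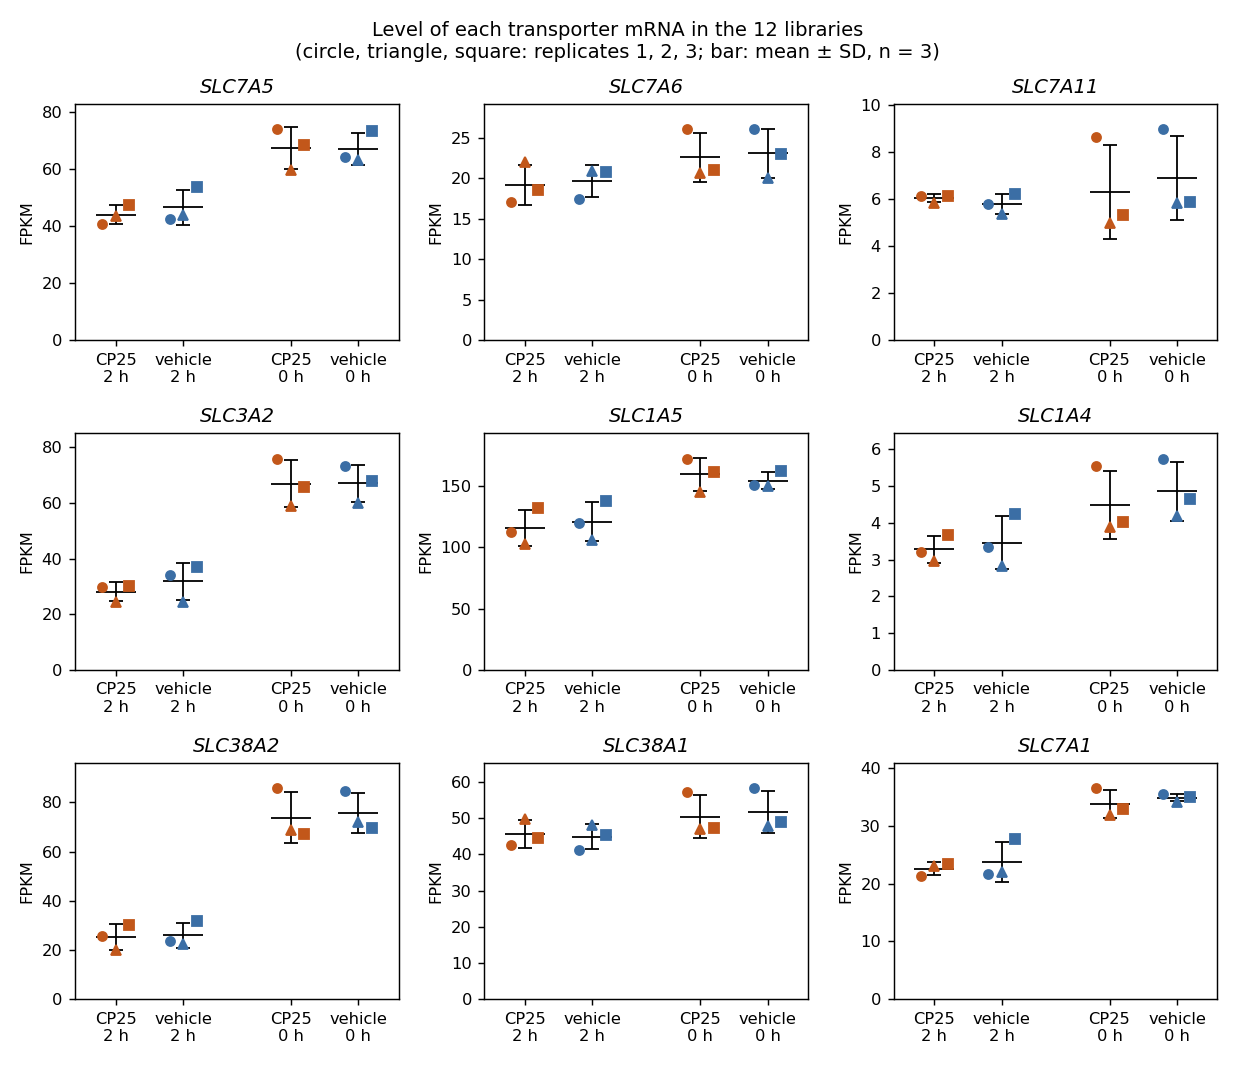
FPKM of each transporter mRNA in every library, with CP25 and vehicle at 2 h on the left and at 0 h on the right of each panel; points are libraries and bars are means with SD (n = 3). SLC38A2 and SLC3A2 lie far lower at 2 h than at 0 h in both treatments, and CP25 and vehicle libraries overlap in every panel at both times.

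The first comparison is 2 h against 0 h of actinomycin D. The times were deposited in separate tables, so their ratio is given without a test, as the percent of the 0 h mean left at 2 h with an SD carried over from both groups. FPKM is a share of each library, and the median of 12076 genes was left at 87.9% in CP25 and 86.7% in vehicle. With each library scaled to the same median FPKM the median gene stood at 113% in CP25 and 112% in vehicle (a shift of 0.36 and 0.37 on the log2 scale), so the side of 100% on which a transporter lies depends on the scaling. As deposited all 9 were left below 100% in both treatments, and with libraries scaled to the same median 6 were in CP25 and 5 in vehicle. Relative to the median gene, 7 of the 9 transporters lay lower in CP25 and 8 in vehicle, with both scalings. The median of the 9 was left at 72.6% in CP25 and 71.3% in vehicle.

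SLC38A2 and SLC3A2 had the lowest values left. SLC38A2 (SNAT2), a sodium-coupled carrier of small neutral amino acids that amino acid shortage induces, measured 25.6, 19.9 and 30.3 FPKM in CP25 replicates 1 to 3 at 2 h, against 85.7, 68.7 and 67.0 FPKM at 0 h. In vehicle it measured 23.8, 22.3 and 31.7 FPKM at 2 h, against 84.8, 71.9 and 69.7 FPKM at 0 h. The 2 h and 0 h libraries were far apart in both treatments, with 34.2 ± 8.56% left in CP25 and 34.4 ± 7.63% in vehicle (n = 3 libraries at each time). Of all genes, 4.46% had a lower ratio in CP25 and 4.57% in vehicle. Relative to the median gene SLC38A2 stood at 38.9% in CP25 and 39.6% in vehicle.

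SLC3A2, the heavy chain, measured 29.8, 24.2 and 30.3 FPKM in CP25 at 2 h, against 76.0, 59.1 and 65.8 FPKM at 0 h. In vehicle it measured 34.2, 24.3 and 36.9 FPKM at 2 h, against 73.3, 60.04 and 68.0 FPKM at 0 h. Again no 2 h library reached a 0 h library. SLC3A2 was left at 42.0 ± 7.34% in CP25 and 47.4 ± 10.9% in vehicle, and 7.24% and 10.2% of all genes had lower ratios. SLC38A2 and SLC3A2 were the 2 transporters with a log2 ratio below -1, in both treatments, where 11.4% of all genes were below it in CP25 and 11.8% in vehicle. With libraries scaled to the same median SLC38A2 alone was below -1, at 43.8% in CP25 and 44.5% in vehicle, and SLC3A2 stood at 53.8% and 61.5%.

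A middle group comprised SLC7A5, SLC7A1, SLC1A4 and SLC1A5. SLC7A5 (LAT1), the light chain that exchanges large neutral amino acids such as leucine, measured 40.8, 43.5 and 47.4 FPKM in CP25 at 2 h, against 73.9, 59.7 and 68.3 FPKM at 0 h. In vehicle SLC7A5 measured 42.3, 43.7 and 53.5 FPKM at 2 h, against 64.3, 63.0 and 73.3 FPKM at 0 h. It was left at 65.2 ± 8.56% in CP25 and 69.6 ± 10.8% in vehicle. SLC7A1 (CAT1), the carrier of arginine and lysine, was left at 66.9 ± 5.76% and 68.2 ± 9.93%, SLC1A4 at 73.1 ± 17.0% and 71.3 ± 18.9%, and SLC1A5 at 72.6 ± 11.1% and 78.4 ± 10.98%, in CP25 and vehicle. All 3 libraries at 2 h lay below all 3 at 0 h for 6 of the 9 transporters in CP25 and 5 in vehicle, where this held for 44.3% of all genes in CP25 and 46.4% in vehicle. SLC1A4 made the difference, overlapping between the times in vehicle. With libraries scaled to the same median SLC7A5 stood at 83.4% in CP25 and 90.1% in vehicle, SLC7A1 at 85.7% and 88.3%, and SLC1A4 at 93.7% and 92.4%. SLC1A5 then stood at 92.9% in CP25 and at 101.6% in vehicle, past 100%.

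SLC7A6, SLC38A1 and SLC7A11 stayed near the median gene. SLC38A1 (SNAT1), the close relative of SLC38A2, measured 42.5, 49.8 and 44.4 FPKM in CP25 at 2 h, against 57.1, 46.9 and 47.2 FPKM at 0 h. In vehicle SLC38A1 measured 41.2, 48.1 and 45.4 FPKM at 2 h, against 58.2, 47.7 and 48.8 FPKM at 0 h. The times overlapped, and SLC38A1 was left at 90.4 ± 12.9% in CP25 and 87.1 ± 11.9% in vehicle. SLC7A6 (y+LAT2), the light chain that exchanges cationic for neutral amino acids, was left at 84.97 ± 16.001% and 85.4 ± 14.1%. Both turned to above 100% with libraries scaled to the same median, SLC38A1 at 115.8% in CP25 and 112.9% in vehicle and SLC7A6 at 109% and 111%.

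SLC7A11 (xCT), the light chain that takes up cystine in exchange for glutamate, measured 6.15, 5.85 and 6.14 FPKM in CP25 at 2 h, against 8.63, 4.97 and 5.35 FPKM at 0 h. In vehicle SLC7A11 measured 5.78, 5.38 and 6.24 FPKM at 2 h, against 8.997, 5.86 and 5.91 FPKM at 0 h. Replicate 1 at 0 h stood above the other 0 h libraries in both treatments, and 95.7 ± 30.6% was left in CP25 and 83.9 ± 22.7% in vehicle. Without replicate 1 at 0 h the values were 117% in CP25 and 98.7% in vehicle. The difference between treatments was within this spread. With libraries scaled to the same median SLC7A11 stood above 100%, at 123% in CP25 and 109% in vehicle.

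**Figure D2:**
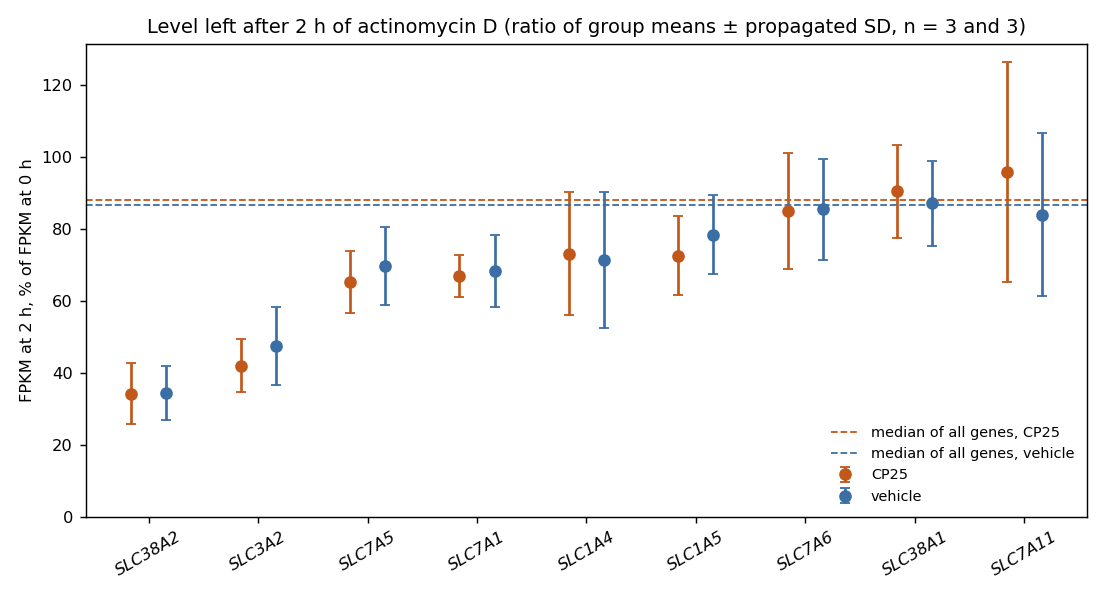
Level of each transporter mRNA at 2 h as a percentage of its 0 h level, ordered by the mean of both treatments; points are ratios of group means, bars are SDs carried over from the 3 libraries at each time, and dashed lines are the medians of all genes (87.9% in CP25, 86.7% in vehicle). The values run from about 34.2% for SLC38A2 in CP25 to 95.7% for SLC7A11 in CP25, and CP25 and vehicle lie within each other's error for every gene. With libraries scaled to the same median, SLC7A6, SLC38A1 and SLC7A11 in both treatments and SLC1A5 in vehicle lie above 100%.

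Ratios within a library do not depend on how libraries or tables were scaled, and they show that partners were left at unequal levels. The summed FPKM of the light chains SLC7A5, SLC7A6 and SLC7A11 was 2.14, 2.94 and 2.38 times that of SLC3A2 in CP25 replicates 1 to 3 at 2 h, against 1.43, 1.44 and 1.44 times at 0 h. In vehicle the ratio was 1.91, 2.88 and 2.18 at 2 h, against 1.36, 1.48 and 1.503 at 0 h. Every 2 h library lay above every 0 h library, and the means were 2.49 ± 0.410 in CP25 and 2.32 ± 0.497 in vehicle at 2 h, against 1.44 ± 0.00649 in CP25 and 1.45 ± 0.0795 in vehicle at 0 h (SD, n = 3). CP25 and vehicle overlapped at both times. SLC7A5 made up 63.5 ± 2.41% of the light chain sum in CP25 and 64.5 ± 2.01% in vehicle at 2 h, and 70.1 ± 2.04% and 69.1 ± 3.82% at 0 h. Of the other light chains that pair with SLC3A2, SLC7A8 had means of 6.05 to 6.47 FPKM in the 4 groups, and SLC7A7 and SLC7A10 stayed below 1 FPKM.

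The system A carriers SLC38A1 and SLC38A2 stood in opposite order at the 2 times. SLC38A1 had 1.66, 2.51 and 1.46 times the FPKM of SLC38A2 in CP25 at 2 h, against 0.666, 0.682 and 0.704 times at 0 h. In vehicle it had 1.73, 2.16 and 1.43 times at 2 h, against 0.687, 0.663 and 0.700 times at 0 h. In all 6 libraries at 2 h SLC38A1 was the more abundant mRNA of the pair, and in all 6 at 0 h SLC38A2 was. The ratio of SLC1A5 to SLC1A4 overlapped between the times, with means of 35.3 ± 0.552 in CP25 and 35.3 ± 2.52 in vehicle at 2 h, and 36.2 ± 4.57 and 32.4 ± 5.27 at 0 h.

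**Figure D3:**
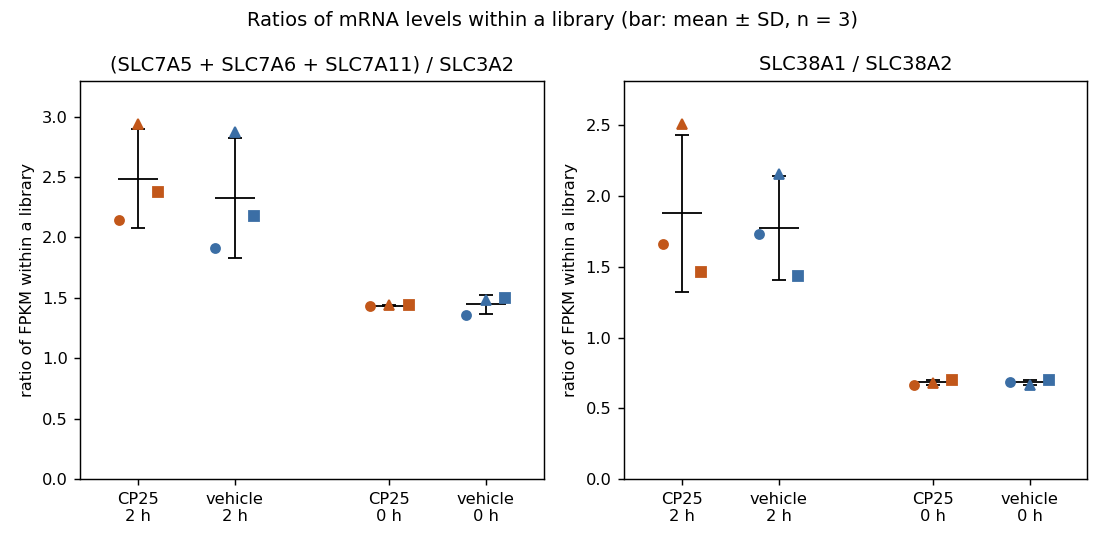
Ratios of FPKM within each library for the light chains over SLC3A2 (left) and for SLC38A1 over SLC38A2 (right), with CP25 and vehicle at 2 h left of 0 h; points are libraries and bars are means with SD (n = 3). Both ratios are higher in every 2 h library than in every 0 h library, and the lowest 2 h values are 1.91 and 1.43.

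AU-rich elements are 3′ UTR sequences through which many short-lived mRNAs are destabilised, and their core is the pentamer AUUUA. In 1 GENCODE 29 transcript per gene, written as DNA, the pentamer ATTTA was counted on the sense strand, together with the longer TATTTAT, which holds an ATTTA. Among transcripts of equal annotation rank the longest 3′ UTR was taken, and which 3′ ends these cells use was not measured. The sites below show the TATTTAT in capitals with up to 10 bases on each side, from the transcripts left lowest and highest among those that have it (GRCh38, minus strand, 3′ UTR). Both sites of SLC38A2 are given, and of the 4 in SLC38A1 and the 5 in SLC7A11 the 1 that lies within the nonamer TTATTTATT. They show that the longer motif is present at both ends of the order. These GRCh38 positions stand apart from the authors' hg19 build and were not used to count reads.
SLC38A2, chr12:46358785-46358811: actgtaatgtTATTTATagaacaacat
SLC38A2, chr12:46358739-46358765: tatttttcaaTATTTATgataatctat
SLC38A1, chr12:46188612-46188638: caataatgttTATTTATtatacatcca
SLC7A11, chr4:138169541-138169567: gactttaattTATTTATttttgatttg

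By the mean of both treatments, the transporters with the most pentamers, SLC7A11 and SLC38A1, were left highest. In vehicle alone SLC7A6, with 8 pentamers, was left at 85.4%, above SLC7A11 at 83.9%. SLC38A2 with 11 pentamers and SLC3A2 with 0 were left lowest. A relation between the number of pentamers and the level left was not tested. SLC38A2 has 11 ATTTA and 2 TATTTAT in a 3′ UTR of 2922 bases. SLC3A2, next to it in level left, has a 3′ UTR of only 100 bases with 0 of either. At the other end SLC7A11 has 32 ATTTA and 5 TATTTAT in 7859 bases, and SLC38A1 has 22 and 4 in 5907 bases. Per kb of 3′ UTR these 3 are alike, with 4.07 ATTTA for SLC7A11, 3.72 for SLC38A1 and 3.76 for SLC38A2. SLC7A6 has 8 and 2, SLC7A1 9 and 1, SLC7A5 2 and 1, and SLC1A4 and SLC1A5 have 1 ATTTA and 0 TATTTAT each. Among 3′ UTRs within 20% of the same length, at least 1 TATTTAT was found in 54.7% for SLC38A2, 3.34% for SLC3A2, 72.2% for SLC38A1 and 80.6% for SLC7A11. At least as many ATTTA as in the transporter were found in 7.37% for SLC7A11, 14.2% for SLC38A1 and 18.4% for SLC38A2. For the others the share was 59.6% for SLC1A5, 62.6% for SLC7A6, 62.9% for SLC7A1, 89.8% for SLC7A5, 95.4% for SLC1A4 and, with 0 ATTTA, 100% for SLC3A2.

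**Figure D4:**
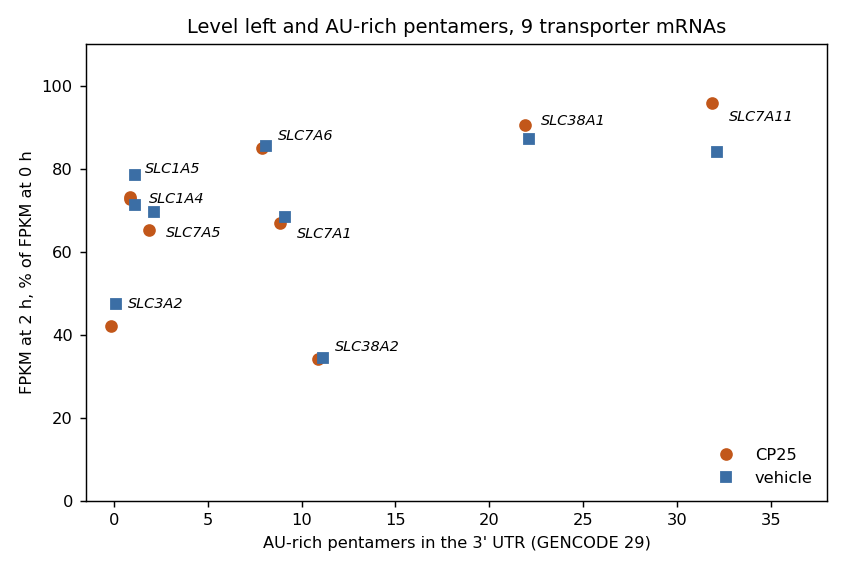
Level left at 2 h, as a percentage of 0 h, against the number of ATTTA pentamers in the 3′ UTR of 1 GENCODE 29 transcript per gene, for CP25 (circles) and vehicle (squares). SLC3A2 with 0 pentamers and SLC38A2 with 11 lie lowest, and SLC38A1 with 22 and SLC7A11 with 32 lie among the highest.

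Near the transcription start, 5 of the 8 transporter genes with a promoter in the RefSeq table (GRCh38.p14, 250 bases before to 50 after each start) hold the C/EBP-ATF element TGATGNAA or its reverse complement TTNCATCA, the kind of site that ATF4 binds with a C/EBP partner. SLC7A11 has no entry in that table. The motif was found in 3.62% of 35116 promoters, or in 4.46% of 27305 genes with at least 1 promoter in the table. The 5 sites, shown because ATF4 is a known regulator of several of these transporters, carry the element in capitals with up to 10 bases on each side, on the strand of the gene.
SLC1A5, chr19:46784894-46784921, minus strand: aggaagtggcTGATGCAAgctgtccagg
SLC1A4, chr2:64989382-64989409, plus strand: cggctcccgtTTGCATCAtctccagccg
SLC38A1, chr12:46266503-46266530, minus strand: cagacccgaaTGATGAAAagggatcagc
SLC7A1, chr13:29595664-29595691, minus strand: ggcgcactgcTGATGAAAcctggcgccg
SLC3A2, chr11:62881726-62881748, plus strand: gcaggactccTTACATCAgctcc

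Counted along the gene from its start, the elements begin at position -97 in SLC1A5, -7 in SLC1A4, -4 in SLC38A1, 8 in SLC7A1 and 38 in SLC3A2. Other motifs were counted the same way on both strands. The antioxidant response element core TGACNNNGC was in 5 of the 8 genes against 16.1% of all genes, the E-box CACGTG in 2 against 8.77%, the CCAAT box CCAAT in 4 against 39.7% and the TATA box TATAAA in 1 against 14.0%. By promoter the shares over the whole table were 13.3%, 7.26%, 34.6% and 11.5% for the same motifs in that order. The genes hold 14 promoters in all, so a gene with several starts had more bases searched. A match describes these letters and does not show that a factor bound there.

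The comparison of CP25 with vehicle after 2 h of actinomycin D asks whether the transcripts that remained differed. For the transporters no difference passed the test. Using limma on log2(FPKM + 1) with Benjamini-Hochberg adjustment at 0.05, 0 of 9 were called, where 0.00851% of 11745 genes were (1 gene, none of the transporters). Without adjustment at 0.05, 45 genes were higher and 42 lower, and 814 genes passed with the replicate number as a block, 1 of them a transporter (SLC3A2). The 9 log2 changes ran from -0.16 for SLC3A2 to 0.05 for SLC7A11, with a median of -0.05 against 0.0056 for all genes. The 95% intervals excluded a 1.5-fold difference either way for 9 of 9 transporters and for 96.3% of all genes. These folds are on the scale of FPKM + 1, which understates the change of low genes.

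SLC3A2 had 28.1 ± 3.37 FPKM in CP25 and 31.8 ± 6.63 FPKM in vehicle (log2 change -0.16, 95% interval -0.53 to 0.21, limma adjusted p = 1). With the replicate number as a block its 95% interval was -0.30 to -0.018 (limma adjusted p = 0.716). Its log2 change was -0.04 without vehicle replicate 3, -0.06 without CP25 replicate 2 and -0.33 without vehicle replicate 2, so its size depends on single libraries. SLC3A2 was no longer the lowest of the 9 without CP25 replicate 2 (SLC7A6 at -0.14) or without vehicle replicate 1 (SLC7A5 at -0.14). The authors' deposited table gives it a p of 0.139 at 2 h, the smallest of the 9 there. SLC7A5 had -0.08 (-0.32 to 0.17), SLC1A5 -0.06 (-0.35 to 0.22) and SLC7A1 -0.06 (-0.30 to 0.18). SLC38A2 had -0.04 (-0.45 to 0.37) and SLC38A1 0.02 (-0.18 to 0.22). The 3 CP25 and 3 vehicle libraries overlapped for all 9 transporters, where 2.47% of all genes lay higher without overlap and 1.75% lower. Within libraries of the same number, SLC3A2, SLC7A5 and SLC1A5 were lower in CP25 in 3 of 3 pairs and 0 transporters were higher in 3 of 3, where 13.7% of all genes were lower and 16.7% higher in this way.

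Levels before the block, at 0 h, show the state reached during the 18 h with CP25 or vehicle. Again 0 of 9 transporters were called, where 0.0% of 12365 genes were (43 genes higher and 45 lower without adjustment at 0.05, and 0 called with the authors' p-values). With the replicate number as a block 857 genes passed without adjustment at 0.05, 0 of them transporters. Log2 changes ran from -0.12 for SLC7A11 (95% interval -0.64 to 0.39) to 0.05 for SLC1A5 (-0.15 to 0.24), with a median of -0.03 against -0.0036 for all genes. SLC3A2 had -0.0063 (-0.27 to 0.25) and SLC7A5 0.0074 (-0.22 to 0.24), SLC38A2 -0.04 (-0.31 to 0.24) and SLC7A1 -0.05 (-0.20 to 0.11), all with limma adjusted p = 1. Intervals excluded a 1.5-fold difference for 8 of the 9, and for 95.6% of all genes. The exception was SLC7A11, whose interval corresponds to 0.644-fold to 1.31-fold. With the replicate number as a block its log2 interval was -0.25 to 0.0021, which excludes a 1.5-fold difference. In that gene replicate 1 was the highest library in both treatments. CP25 and vehicle libraries overlapped for all 9 at 0 h, where 1.23% of all genes lay higher without overlap and 2.85% lower.

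SLC7A11, SLC1A4 and SLC38A1 were lower in CP25 in 3 of 3 same-numbered pairs at 0 h and 0 transporters were higher in 3 of 3, where 17.9% of all genes were lower and 12.1% higher in this way.

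Library values also went with the replicate number. At 2 h the same number gave the lowest library in CP25 and vehicle for 9 of 9 transporters and the highest for 8 of 9, where it gave the lowest for 61.7% and the highest for 63.4% of all genes tested. At 0 h it gave the lowest for 9 of 9 and the highest for 7 of 9, against 61.6% and 61.5% of all genes. That highest library was replicate 1 for all 7 transporters, and replicate 1 was the highest in both treatments for 25.4% of all genes. CP25 replicate 1 at 0 h was above its group mean for 9 transporters and vehicle replicate 1 for 7, while replicate 2 was above it for 0 in both groups. Over all genes replicate 1 was above its group mean for 48.2% in CP25 and 42.7% in vehicle, and replicate 2 for 49.2% and 49.6%. The 9 genes are not independent of each other in this. The fit with replicate number as a block called 0 transporters at either time.

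The CP25 effect at 2 h minus that at 0 h, termed the difference of effects, asks whether the level left at 2 h depended on CP25, and a scale factor common to a table cancels in it apart from the pseudocount. Of 9 transporters 0 were called by limma in the fit of all 12 libraries, where 0.0% of 12183 genes were (94 positive and 59 negative without adjustment at 0.05). With the replicate number as a block 1284 genes passed without adjustment at 0.05, 1 of them a transporter (SLC7A11). SLC7A11 had the largest value, 0.18 (95% interval -0.37 to 0.72), and SLC3A2 the lowest, -0.15 (-0.62 to 0.31), both with limma adjusted p = 1. SLC38A2, the transporter with the least left, had -0.0049 (-0.51 to 0.50). A 1.5-fold difference was excluded for 7 of the 9 and for 86.7% of all genes. The SLC7A11 interval allows up to 1.65-fold more left with CP25 and the SLC3A2 interval down to 0.653-fold. With the replicate number as a block the log2 intervals were 0.021 to 0.33 for SLC7A11 and -0.32 to 0.017 for SLC3A2. Without vehicle replicate 1 at 0 h the SLC7A11 value was -0.0027, and without CP25 replicate 1 at 0 h it was 0.39.

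**Figure D5:**
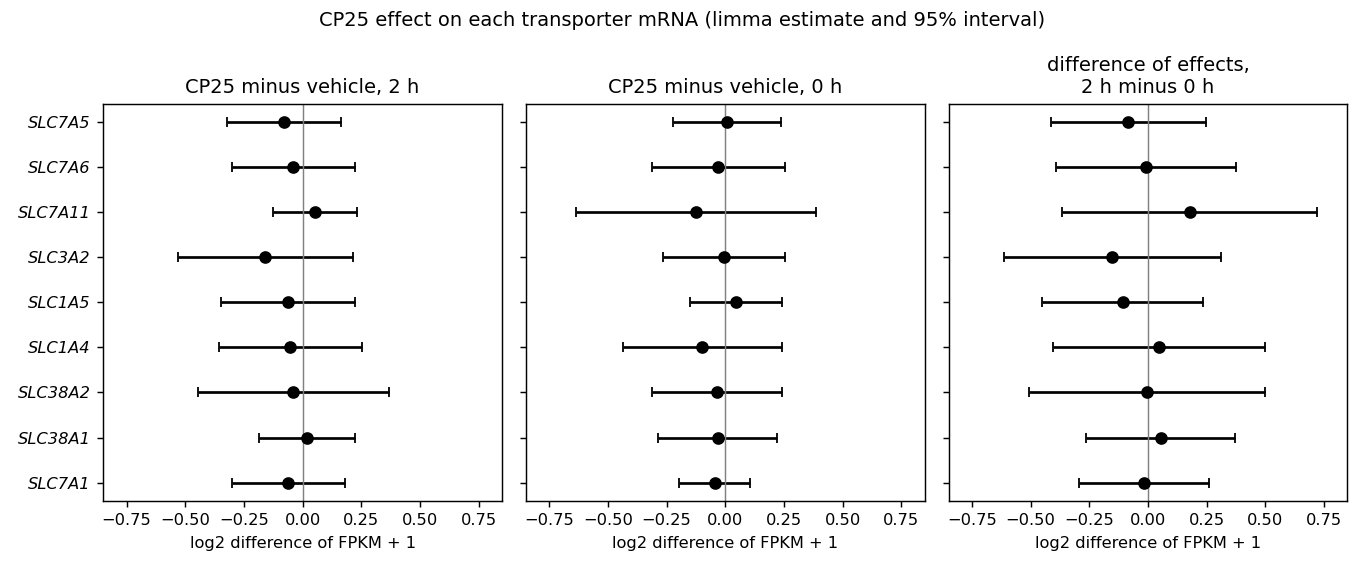
CP25 effect on each transporter mRNA at 2 h, at 0 h and as the difference of effects, as log2 differences of FPKM + 1 with 95% intervals from limma (3 libraries per group). Every interval of this fit, which has no block, spans zero, and the widest are those of SLC7A11 at 0 h and in the difference of effects. With the replicate number as a block, the intervals of SLC3A2 at 2 h and of SLC7A11 in the difference of effects do not span zero.

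Other genes of amino acid supply give the setting. Of 40 other amino acid transporters 18 had a mean of at least 1 FPKM, and their median log2 ratio of 2 h to 0 h was -0.21 in CP25 and -0.29 in vehicle, against -0.19 and -0.21 for all genes. None of the 18 had a log2 ratio below -1 in either treatment, where 11.4% of all genes did in CP25 and 11.8% in vehicle. SLC43A2, a carrier of large neutral amino acids, was left at 58.3 ± 11.4% in CP25 and 52.9 ± 8.12% in vehicle, SLC36A1, a proton-coupled carrier, at 62.1 ± 9.47% and 61.4 ± 8.54%, and the glycine transporter SLC6A9 at 69.3 ± 26.5% and 63.8 ± 20.8%. SLC36A4 stood highest, at 122 ± 9.39% and 114 ± 8.67%, with SLC43A1 at 115 ± 39.7% and 117 ± 38.9% and SLC7A3, another cationic carrier, at 113 ± 55.1% and 108 ± 52.5%. CP25 against vehicle called 0 of the 18 in either direction at 2 h and at 0 h.

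The genes of the ATF4 and amino acid response were split. Of 32, 31 had a mean of at least 1 FPKM, and their median log2 ratio was -0.02 in CP25 and 0.10 in vehicle. Below -1 were 6 of the 31 in CP25 and 5 in vehicle, where 11.4% and 11.8% of all genes were. Lowest were CHAC1, which degrades glutathione, at 11.4 ± 8.91% and 12.8 ± 10.55%, the transcription factor CEBPB at 20.7 ± 5.63% and 22.6 ± 10.4%, and PPP1R15A, which brings a phosphatase to eIF2α, at 24.3 ± 2.18% and 23.4 ± 7.11%. CHAC1 was a low gene, with means of 1.87 FPKM in CP25 and 2.00 FPKM in vehicle at 0 h. At 2 h they were 0.214 and 0.256 FPKM, below 1 FPKM. Highest were 3 biosynthetic enzymes, with ASNS, asparagine synthetase, at 160 ± 38.3% in CP25 and 174 ± 44.2% in vehicle, CTH, which makes cysteine from cystathionine, at 150 ± 40.8% and 139 ± 38.2%, and the serine enzyme PSAT1 at 134 ± 17.5% and 137 ± 20.4%. CP25 against vehicle called 0 of 30 of these genes at 2 h and 0 of 31 at 0 h.

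Among 28 genes through which amino acids signal to mTORC1, the median log2 ratio was -0.22 in CP25 and -0.15 in vehicle. In each treatment 1 of them was below -1, where 11.4% of all genes were in CP25 and 11.8% in vehicle. FLCN was left at 44.7 ± 6.33% in CP25 and 50.5 ± 2.96% in vehicle, C7orf60 (SAMTOR, a sensor of S-adenosylmethionine) at 55.4 ± 5.65% and 47.2 ± 5.03%, and RPTOR at 53.5 ± 9.84% and 53.6 ± 9.47%. The GTPases RRAGD, at 125 ± 15.1% and 131 ± 19.1%, and RHEB, at 120 ± 7.65% and 124 ± 6.94%, stood highest, with the Ragulator subunit LAMTOR5 at 104 ± 10.503% and 109 ± 9.61%. Of 7 genes listed for cystine use and glutathione synthesis, a list that also holds CBS and CTH, 1 lay below the median gene in each treatment. GCLC, the catalytic subunit of the rate-limiting ligase, was left at 78.3 ± 9.43% and 75.9 ± 9.25%, its partner GCLM at 91.5 ± 14.3% and 90.5 ± 18.8%, and CBS at 95.03 ± 4.56% and 92.8 ± 6.38%, while glutathione synthetase GSS stood at 126 ± 13.3% and 121 ± 14.9% and glutathione reductase GSR at 122 ± 14.2% and 113 ± 10.4%. CP25 against vehicle called 0 genes of either list at 2 h and at 0 h.

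Genes with the most similar profiles were found by the Euclidean distance of log2(FPKM + 1) over the 12 libraries after each gene was centred on its own mean, with small RNA and clone names left out. Nearest to SLC38A2 were RGMB (distance 0.343), left at 25.6% in CP25 and 23.6% in vehicle, and PPP1R15B (0.413), left at 30.7% and 31.8%. Nearest to SLC3A2 were NKX3-2 (0.296), left at 29.4% and 35.4%, and MYPOP (0.307), left at 39.4% in both. For SLC7A11 they were ZNF711 (0.302), left at 97.3% and 86.7%, and MDM4 (0.312), left at 105% and 81.0%. NKX3-2 averaged 2.43 FPKM and RGMB 4.08 FPKM over the 12 libraries. The added 1 understates the change of such low genes in this distance. Within the 9, SLC38A1 and SLC7A6 lay closest to each other (0.202), followed by SLC7A5 and SLC7A1 (0.221), while SLC38A2 and SLC3A2, at 0.778, were each other's nearest but further apart than any other gene was from its nearest.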

How the data were processed

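Poly(A) RNA of 12 HEK293T libraries was measured, 3 per group. The authors deposited FPKM per library, with 1 table per time; CASAVA 1.8.2, Trimmomatic 0.36, Bowtie2 2.2.3 and the hg19 build were used, per the submitters' processing notes, and for the FPKM the program is not given in the sources used here. In addition, the authors' deposited comparison tables give a p-value per gene, taken as unadjusted. Here log2(FPKM + 1) of genes averaging 1 FPKM or more was fitted with limma 3.58.1 (R 4.3.3). The fit had a mean-variance trend, Benjamini-Hochberg adjustment and no block. It was also run on simulated data with independent libraries and changes larger than 1.5-fold. That run does not cover deviations shared by a replicate number or changes of 1.5-fold. Depth was taken from the most frequent value of 1 fragment, using GENCODE 29 transcript lengths; it sets counting precision, and intervals cover library spread. At 2 h libraries of the same number deviated together (correlations 0.347, 0.44 and 0.147 across genes), so the numbers pair them. This comes from the data, not the labels. The main fit leaves this pairing out, and its intervals and p-values do not take it into account. For all 9 transporters its intervals were wider than those with the block, at both times and in the difference of effects. Ratios between times, ratios within a library and motifs are descriptive. All 9 members are named; from each context list, 3 genes with the lowest and 3 with the highest ratio of 2 h to 0 h; and 2 nearest profiles for 3 members. The members, lists and motifs were chosen with earlier results of these data known. Alternatives were the pseudocount, filter, scaling, block, single libraries left out and the authors' p-values.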

Additional observations from a re-analysis of the deposited data

How the results depend on the processing

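No transporter was called under any alternative run for CP25 against vehicle or for the difference of effects. The count over all genes at 2 h was 0 with the authors' p-values, and leaving out 1 library gave 1 to 7 genes at 2 h (7 without CP25 replicate 2), 1 to 4 at 0 h (4 without CP25 replicate 1) and 0 to 3 for the difference of effects. The median log2 ratio of 2 h to 0 h over the 9 was -0.11 in both treatments (-0.107 in CP25, -0.114 in vehicle) with libraries scaled to the same median, and without 1 library it ran from -0.567 to -0.385 in CP25 and from -0.637 to -0.360 in vehicle. With the replicate number as a block, 1 gene was called at 2 h and 0 at 0 h and for the difference, the counts of the fit without it, and no call of a transporter changed. Without adjustment at 0.05 the block moved the counts over all genes to 814 at 2 h, 857 at 0 h and 1284 for the difference. At 2 h the block gave SLC3A2 an unadjusted p of 0.0323 (limma adjusted p = 0.716), and for the difference of effects it gave SLC7A11 one of 0.0306 (limma adjusted p = 0.416). At 0 h same-numbered libraries correlated at 0.258, -0.0101 and 0.124 across all genes. Not every pair passed 0.1, so by that rule the numbers were not taken as pairs there. The same number still gave the lowest library for 61.6% of all genes and the highest for 61.5%, so pairing at 0 h was not settled.

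Small log2 changes turned sign. SLC3A2 at 0 h was 0.0081 with libraries centred on the median, SLC7A5 at 0 h was -0.0075 with quantile normalization, and the difference for SLC38A2 was 0.0014 with quantile normalization. Without 1 library, the changes at 2 h ran from -0.141 to 0.0256 for SLC7A5, -0.136 to 0.0371 for SLC7A6, -0.158 to 0.0689 for SLC1A4, -0.158 to 0.0357 for SLC1A5, -0.122 to 0.0503 for SLC7A1, -0.0443 to 0.0705 for SLC38A1 and -0.177 to 0.116 for SLC38A2. At 0 h they ran from -0.340 to 0.0554 for SLC7A11, -0.0621 to 0.0904 for SLC7A5, -0.134 to 0.0592 for SLC7A6, -0.100 to 0.0788 for SLC3A2, -0.232 to 0.0079 for SLC1A4, -0.0103 to 0.111 for SLC1A5, -0.125 to 0.0556 for SLC38A1 and -0.146 to 0.0501 for SLC38A2. Differences of effects ran from -0.0027 to 0.392 for SLC7A11, -0.168 to 0.0182 for SLC7A5, -0.106 to 0.0945 for SLC7A6, -0.0604 to 0.179 for SLC1A4, -0.0774 to 0.0953 for SLC7A1, -0.0353 to 0.145 for SLC38A1 and -0.141 to 0.151 for SLC38A2. The cause was not tested. No single library left out turned the sign of SLC3A2 (-0.335 to -0.0432) or SLC7A11 (0.0078 to 0.0986) at 2 h, of SLC7A1 at 0 h (-0.100 to -0.0063), or of the differences for SLC3A2 (-0.328 to -0.0369) and SLC1A5 (-0.204 to -0.0107).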
